A study of Mus musculus with 8 samples.

Results

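The ephrin, Slit-Robo and netrin guidance genes were examined in sorted liver endothelial cells of mice that had received labelled bone marrow cells. The rule for members uses gene symbols and no measured value: it takes genes with 1 symbol that encode an EphA or EphB receptor, an ephrin-A or ephrin-B, Slit1 to Slit3, Robo1 to Robo4, a netrin or netrin-G, Unc5a to Unc5d, Dcc or Neo1. They number 39 of the 21159 genes tested, and each has 1 probe set. The recipients were wild-type C57BL\6N mice of 8 weeks, all irradiated with 9 Gy in 2 doses of 4.5 Gy and given 5000 YFP-labelled LSK cells, the marrow fraction enriched for haematopoietic stem cells and progenitors. The livers were taken 1 month later, and CD45- CD31+ CD146+ liver cells were sorted and divided by YFP. YFP- cells (resident, 4 arrays) and YFP+ cells (marrow-derived, 4 arrays) therefore share the irradiation and the transplant, and the labels give no unirradiated group. The sample titles call the 4 samples of each group biological replicates. The labels do not say which promoter drives the YFP of the donor cells or whether animals were pooled. The p-values therefore reflect only how much these samples vary, and whether each sample is 1 animal is not known. The 1 comparison asks how the transcripts of marrow-derived liver endothelial cells differ from those of the resident ones.

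Guidance molecules were first described in growing nerves and also steer and stabilise blood vessels. Eph receptors are receptor tyrosine kinases whose ligands, the ephrins, sit on the membrane of neighbouring cells, so that contact signals run into both cells. Ephrin-B2 is a classical marker of arterial and EphB4 of venous endothelium, Slits are secreted ligands of Robo receptors, of which Robo4 is largely restricted to endothelium, and netrins signal through DCC, neogenin and the UNC5 receptors.

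Levels are log2 of the normalized intensity that the authors deposited, and differences are YFP+ minus YFP- unless stated otherwise. A gene was called where limma gave an adjusted p under 0.05 (Benjamini-Hochberg over all 21159 genes), and it counted as detected where its mean over the 8 arrays exceeded 8.95 log2, the mean over arrays of the 95th percentile of the negative control probe sets. Median intensities of the arrays lay between 160.1 and 165.6 units, and array data give no count of depth, so that the number of arrays limits the precision. The negative controls had medians of 119.5 to 127.7 units on YFP- and 103.2 to 113.0 units on YFP+ arrays, so the groups did not overlap in this median. Their 95th percentiles did overlap, at 8.98 to 9.10 log2 on YFP- and 8.73 to 9.04 log2 on YFP+ arrays. YFP+ replicate 3 stood apart, with a mean correlation of 0.901 with its own group against 0.930 to 0.941 on the other YFP+ arrays, and YFP+ replicate 2 had the highest mean of the pan-leukocyte list. Among the 4 YFP+ arrays, replicate 3 gave the highest value for 24 of the 39 members (61.5%) and for 40.5% of all genes. The sorted cells carried their defining markers in both groups, with Pecam1 at 11.68 ± 0.05 and 11.45 ± 0.09 log2 and Cdh5 at 12.03 ± 0.05 and 11.75 ± 0.15 log2 in YFP- and YFP+ cells (SD, n = 4).

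Of the guidance genes, Epha7, an EphA receptor gene best known from the developing nervous system, was called higher in YFP+ cells, and no member was called lower. The 1 called gene is 2.56% of the members, beside 1.61% of all genes called in the same fit. At an unadjusted p under 0.05, 7 members differed, 3 higher and 4 lower, which is 17.9% of them beside 13.5% of all genes. Differences were negative for 20 of the 39 members, beside 49.6% of all genes. The median difference over the 39 members was -0.01, and that over all genes was 0.00. The 4 YFP+ values lay wholly outside the 4 YFP- values for Epha7, Ephb4, Efnb2 and Robo4, or 10.3% of the members, beside 8.62% of all genes. Both member shares lie near those of all genes.

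**Figure D1:**
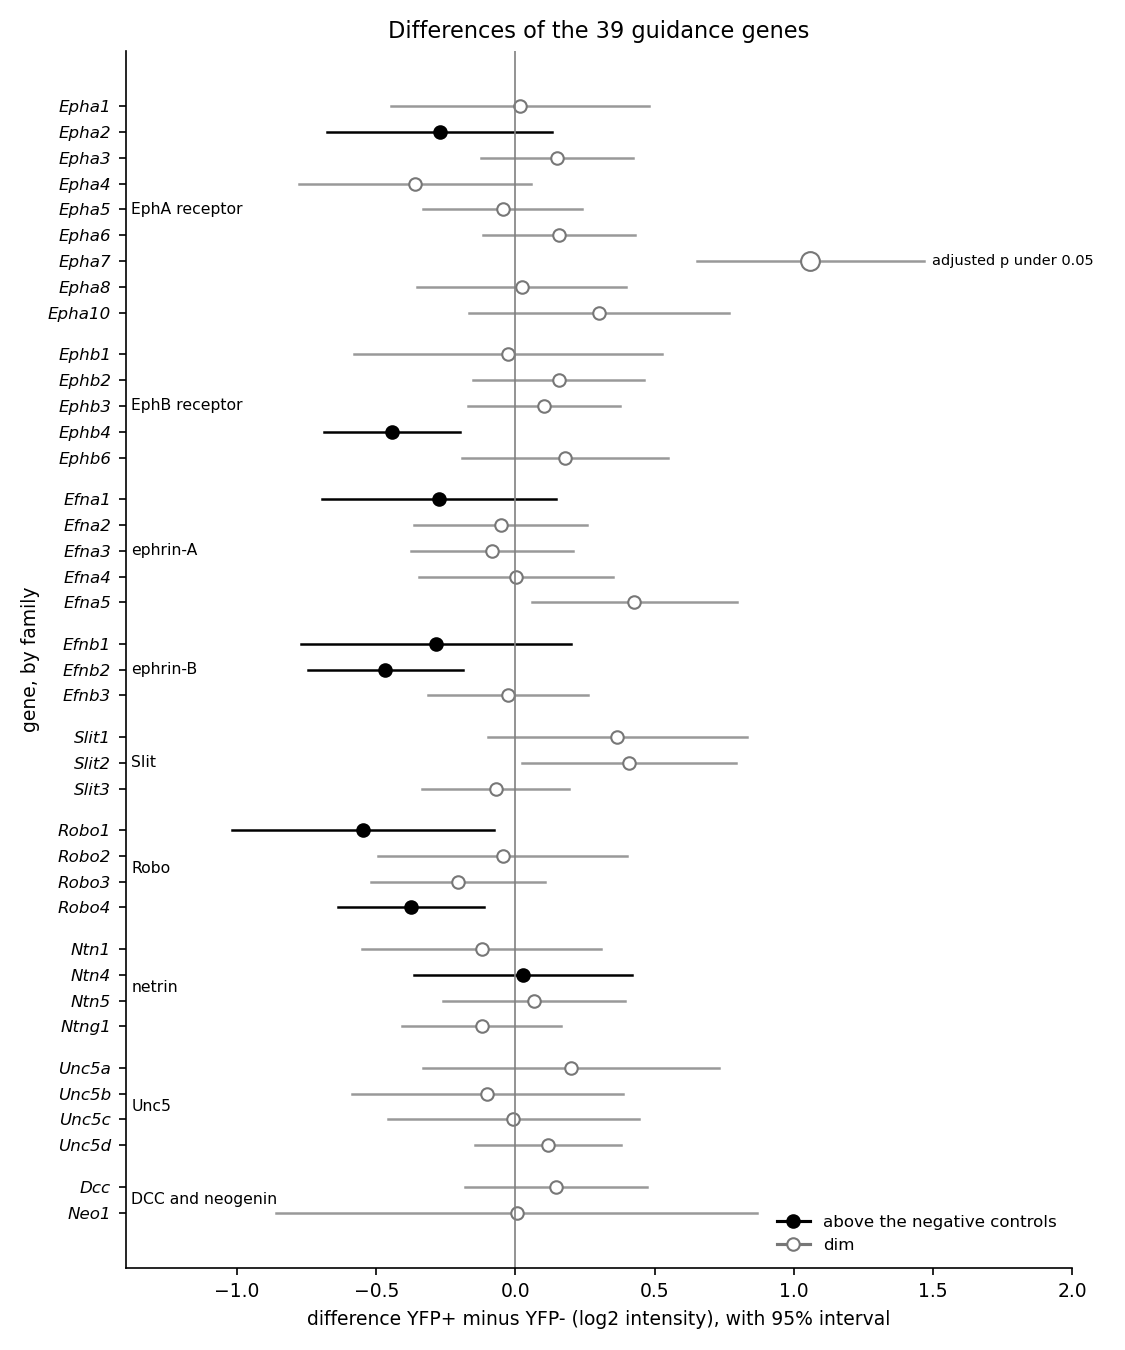
Difference of each of the 39 guidance genes between YFP+ and YFP- cells (log2 intensity, points) with its 95% interval from limma (lines), by family. Filled points are genes above the negative controls and open points are dim genes. Epha7, at 1.06, is the called gene, and 7 of the 8 filled points lie below 0.

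The members divided by their level. Detected were 8 of the 39 members (20.5%), beside 14.9% of all genes: Ephb4, Epha2, Efna1, Efnb1, Efnb2, Robo1, Robo4 and Ntn4. Of these, 7 were above the negative controls' 95th percentile on all 8 arrays, and Robo1 on 3 arrays of each group. The other 31 were dim, and 30 of them stayed under that percentile on every array. Differences were negative for 7 of the 8 detected members (87.5%), beside 60.4% of the 3149 detected genes, with a median of -0.33 against -0.07 for all detected genes. The groups did not overlap for 3 of the 8 (37.5%), beside 19.4% of detected genes. In sorted bulk cells, a smaller share of cells that express a gene and less of its RNA per cell cannot be told apart.

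**Figure D2:**
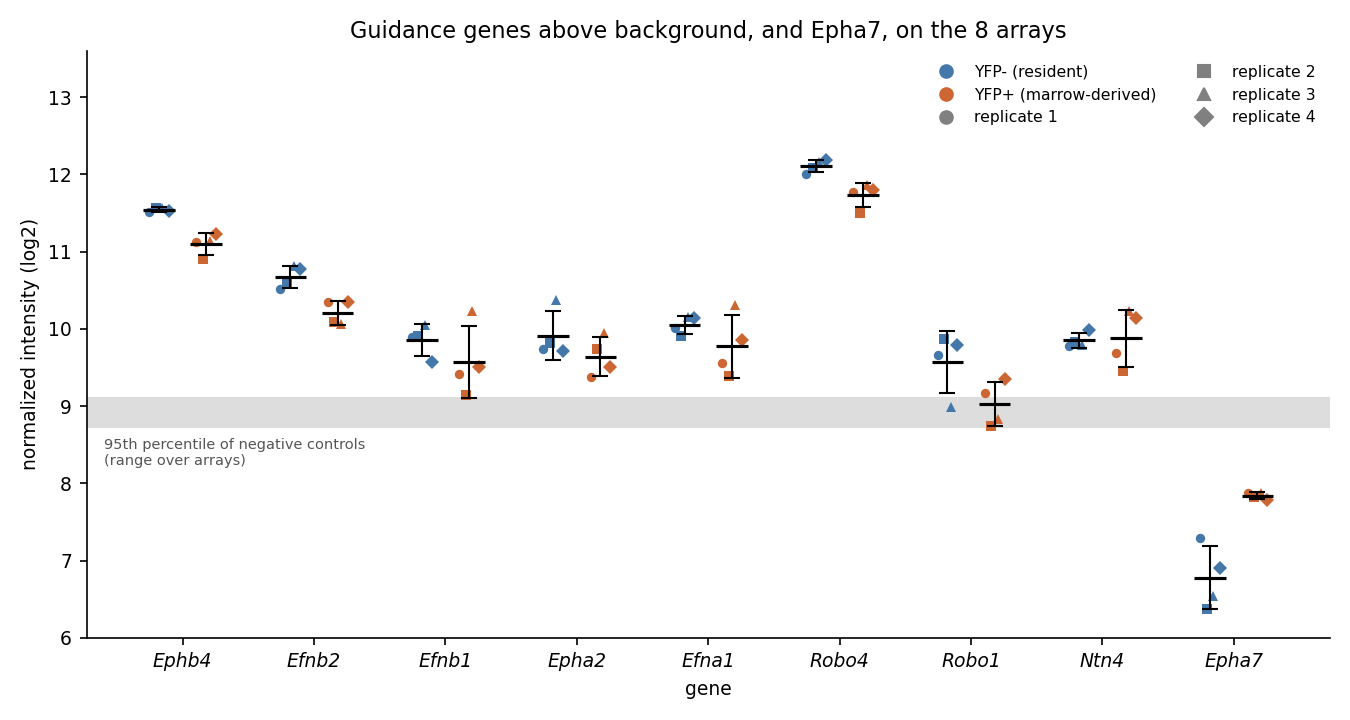
Normalized intensity (log2) of the 8 detected guidance genes and of Epha7 on each array, by group (colour) and replicate (marker), with mean and SD (n = 4). The grey band spans the 95th percentile of the negative controls over the arrays. Ephb4, Efnb2, Robo4 and Epha7 have groups that do not overlap, and Epha7 lies below the band on all 8 arrays.

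Ephb4 encodes the EphB receptor of venous endothelium, whose main ligand is ephrin-B2. It stood at 11.51, 11.57, 11.57 and 11.52 log2 on YFP- replicates 1 to 4 and at 11.12, 10.91, 11.14 and 11.23 on YFP+ replicates 1 to 4. Every YFP+ array was below every YFP- array, replicate 2 the most, and the resident samples were almost alike (SD 0.031, against 0.14 in YFP+ cells). The difference of -0.44 (SE 0.11, 95% interval -0.69 to -0.20) corresponds to a 1.36-fold lower intensity in YFP+ cells and missed the threshold (limma adjusted p = 0.0891). Of 18 alternatives, 15 left it uncalled and 3 called it. Adjusted over the 3149 detected genes alone, of which 6.76% were called, the limma p was 0.0427. Subtraction of the negative controls gave 0.0485, and trended and robust variance estimation gave 0.0304. Among the 15 were the replicate block (limma adjusted p = 0.155), cyclic loess normalization (0.122) and every fit with 1 array left out (0.0728 to 0.234).

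Efnb2 encodes ephrin-B2, the membrane-bound ligand of EphB4 and the arterial partner in their contact signalling. Its values were 10.52, 10.60, 10.81 and 10.78 log2 on YFP- replicates 1 to 4 and 10.34, 10.09, 10.06 and 10.35 on YFP+ replicates 1 to 4. Again all YFP+ arrays were the lower ones, by a difference of -0.47 (SE 0.13, 95% interval -0.75 to -0.19) or 1.38-fold, short of the threshold (limma adjusted p = 0.114). Receptor and ligand had nearly the same difference. Within an array, Ephb4 minus Efnb2 was 0.87 ± 0.13 in YFP- and 0.89 ± 0.13 log2 in YFP+ cells (SD, n = 4), and its shift of 0.02 gave p = 0.83 in a two-sided exact permutation test.

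Robo4, the endothelial member of the roundabout receptors, stabilises vessels and limits their leakiness. It stood at 11.999, 12.09, 12.15 and 12.18 log2 on YFP- replicates 1 to 4 and at 11.77, 11.50, 11.86 and 11.79 on YFP+ replicates 1 to 4, so the groups did not overlap and YFP+ replicate 2 was lowest. The difference was -0.37 (SE 0.12, 95% interval -0.64 to -0.11), or 1.30-fold, and missed the threshold (limma adjusted p = 0.173). Robo1, the widely expressed Slit receptor, had the largest negative difference of the members, -0.55 (SE 0.21, 95% interval -1.02 to -0.08, limma adjusted p = 0.275). Its values overlapped: YFP- replicates 1 to 4 were at 9.66, 9.87, 8.99 and 9.78 log2 and YFP+ replicates 1 to 4 at 9.17, 8.75, 8.83 and 9.36. The low YFP- replicate 3 fell among the YFP+ arrays. The other Robo genes, Robo2 and Robo3, were dim.

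The sequence just before the annotated start of the 4 genes with non-overlapping groups is shown. The promoters of Ephb4, Efnb2 and Robo4, lower on the YFP+ arrays but not called, can so be set beside that of the called Epha7. Sequences are from RefSeq, build GRCm38.p6, read 5′ to 3′ on the gene's strand and ended before the first annotated base of the gene. They cover chr5:137349859-137350108 (plus strand) for Ephb4, chr8:8661243-8661492 (minus strand) for Efnb2, chr9:37401722-37401901 (plus strand) for Robo4 and chr4:28812881-28813065 (plus strand) for Epha7. The stretches differ in length, with 250 bases for Ephb4 and Efnb2, 180 for Robo4 and 185 for Epha7. Capitals mark a CCAAT box (CCAAT) or a GC box (GGGCGG) on either strand.
Ephb4: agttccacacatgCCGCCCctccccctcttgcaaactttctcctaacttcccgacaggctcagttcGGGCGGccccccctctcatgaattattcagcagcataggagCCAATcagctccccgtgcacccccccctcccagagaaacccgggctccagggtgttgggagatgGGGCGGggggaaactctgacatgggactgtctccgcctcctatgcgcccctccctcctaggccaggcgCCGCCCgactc
Efnb2: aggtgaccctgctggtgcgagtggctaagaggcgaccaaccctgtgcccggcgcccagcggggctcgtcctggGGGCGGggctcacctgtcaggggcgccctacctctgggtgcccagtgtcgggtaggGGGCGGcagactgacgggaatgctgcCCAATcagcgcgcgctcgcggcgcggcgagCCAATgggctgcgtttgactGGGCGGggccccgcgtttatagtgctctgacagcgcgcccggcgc
Robo4: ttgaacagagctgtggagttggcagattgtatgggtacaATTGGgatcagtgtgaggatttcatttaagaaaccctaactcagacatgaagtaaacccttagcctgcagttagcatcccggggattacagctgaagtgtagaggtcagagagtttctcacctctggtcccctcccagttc
Epha7: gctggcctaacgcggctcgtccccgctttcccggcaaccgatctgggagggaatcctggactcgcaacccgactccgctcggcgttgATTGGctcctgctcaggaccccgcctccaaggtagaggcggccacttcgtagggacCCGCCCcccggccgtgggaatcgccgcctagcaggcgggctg
Ephb4 and Efnb2 share a GC-rich stretch, with 64% and 72% G or C, 4 and 3 GC boxes, and 1 and 2 CCAAT boxes. Epha7 is alike, with 69.7% G or C and 1 box of each kind, whereas the Robo4 stretch has 47.2% G or C, 1 CpG dinucleotide in its 180 bases against 12 and 27 in the 250 bases of Ephb4 and Efnb2, 1 CCAAT box and no GC box. Among the 34 members whose promoter was found in the RefSeq table, a GC box lay within the 250 bases before the start for 24 (70.6%), beside 32.9% of 27025 promoters, and a CCAAT box for 13 (38.2%), beside 34.5%. Of 3 short words bound by factor families active in endothelium, the ETS word AGGAAG was in 8 member promoters (23.5%, beside 29.2% of all), the GATA word AGATAA in 2 (5.88%, beside 10.3%) and the KLF word CCACCC in 12 (35.3%, beside 27.7%), on either strand. None of the 3 is in the stretches shown, although the 250-base window of Robo4, which runs past the stretch shown, holds the ETS word, and such matches are descriptions of letters, not binding sites.

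Ephrin-A1, ephrin-B1 and the EphA2 receptor, to which ephrin-A1 binds, differed less, and their groups overlapped. Efna1 stood at 10.01, 9.90, 10.15 and 10.14 log2 on YFP- replicates 1 to 4 and at 9.55, 9.39, 10.32 and 9.85 on YFP+ replicates 1 to 4, a difference of -0.27 (SE 0.19, limma adjusted p = 0.614). Efnb1 was at 9.89, 9.91, 10.05 and 9.57 log2 on the YFP- arrays and at 9.41, 9.14, 10.24 and 9.50 on the YFP+ arrays in the same order, a difference of -0.28 (SE 0.22, limma adjusted p = 0.663). In both ligand genes, YFP+ replicate 3 was the highest of all 8 arrays and the other YFP+ arrays were below every YFP- array. Without that replicate the differences were -0.45 for Efna1 and -0.51 for Efnb1 (limma adjusted p = 0.129 and 0.115), and without YFP+ replicate 2, the lowest, they were -0.15 and -0.14. Epha2 had a difference of -0.27 (SE 0.18, limma adjusted p = 0.598), with 9.74, 9.82, 10.38 and 9.72 log2 on YFP- and 9.37, 9.74, 9.95 and 9.50 on YFP+ replicates 1 to 4. Here replicate 3 was the highest array of each group, and without YFP- replicate 3 the difference was -0.12.

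Netrin-4, a secreted netrin that binds laminins of basement membranes, was the 1 detected member without a negative difference. Ntn4 stood at 9.78, 9.84, 9.79 and 9.99 log2 on YFP- replicates 1 to 4 and at 9.68, 9.45, 10.23 and 10.15 on YFP+ replicates 1 to 4. The YFP+ arrays lay on both sides of the resident ones, and the difference was 0.03 (SE 0.18, 95% interval -0.36 to 0.42, limma adjusted p = 0.974). Its sign turned to -0.09 without YFP+ replicate 3 and to -0.06 without YFP+ replicate 4.

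Because the cells were chosen as endothelial, the detected members were also set against 17 pan-endothelial genes measured on the same arrays. None of them is among the 39 members, but Mcam, which encodes CD146, a marker of the sort, is also on the list of netrin partners. The mean of that list was 10.82 ± 0.05 log2 in YFP- and 10.46 ± 0.18 log2 in YFP+ cells (SD, n = 4), a difference of -0.36 with every YFP+ array below every YFP- array (p = 0.0286, two-sided exact permutation test, the smallest p that 4 against 4 allows), and 1 of the 17 genes was called lower. On YFP+ replicates 1 to 4 it was 10.54, 10.21, 10.63 and 10.45 log2, lowest on replicate 2 as were Ephb4 and Robo4. Efnb2 was low on YFP+ replicate 2 (10.09 log2) and also on replicate 3 (10.06 log2), where the list mean was highest. After each array's list mean was subtracted, the difference was -0.08 for Ephb4 (exact permutation p = 0.286), -0.10 for Efnb2 (0.514), -0.01 for Robo4 (0.857) and -0.19 for Robo1 (0.514). It was 0.09 for Efna1 and Epha2 and 0.08 for Efnb1 (exact permutation p = 0.629, 0.743 and 0.714). Relative to the list, the lowest Ntn4 value of the YFP+ arrays was above the highest of the YFP- arrays, and the group means differed by 0.39 log2 (exact permutation p = 0.0286, or 0.229 adjusted over these 8 comparisons). The other 7 had adjusted p-values of 0.849 to 0.857. With a smallest p of 0.0286, no gene could pass 0.05 after adjustment unless at least 5 of the 8 separated fully, so a p above the threshold here says little.

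**Figure D3:**
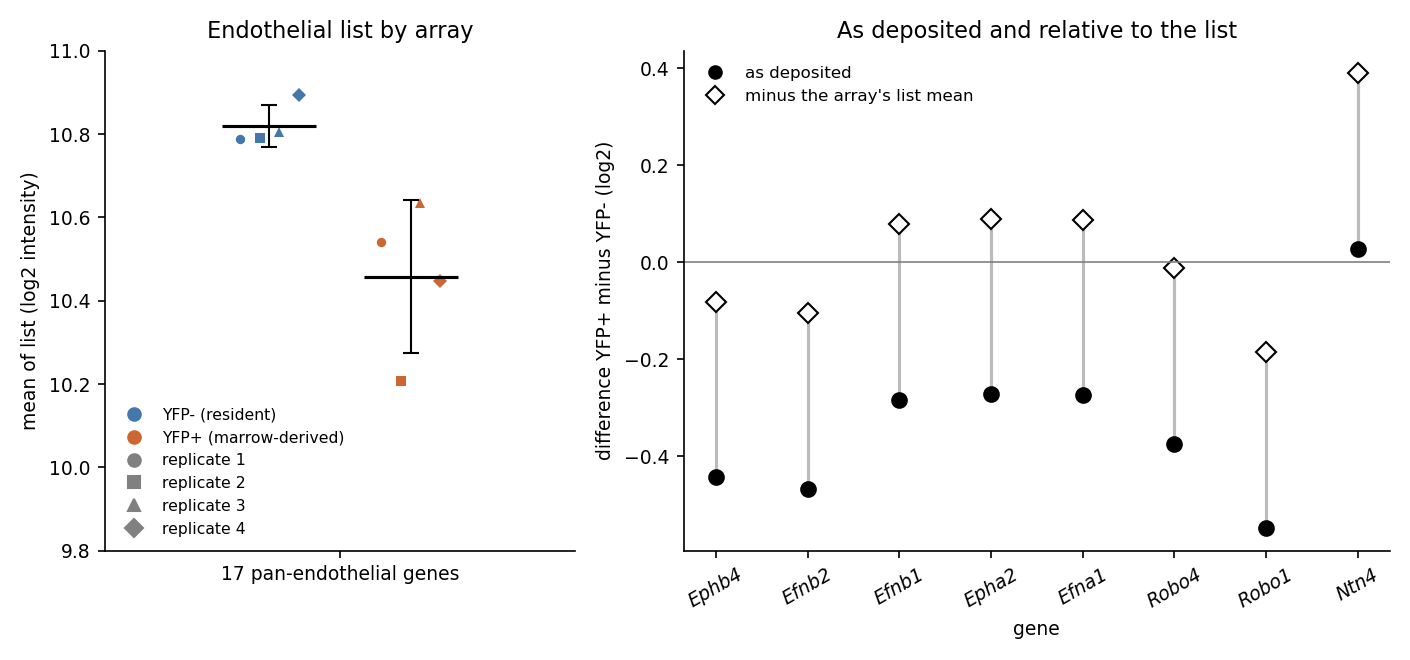
Left, mean of 17 pan-endothelial genes on each array (log2 intensity) with mean and SD of each group (n = 4); the axis does not start at 0. Right, the difference between YFP+ and YFP- cells for the 8 detected guidance genes as deposited (filled) and after subtraction of the array's list mean (open). Robo4 moves from -0.37 to -0.01 and Ntn4 from 0.03 to 0.39.

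Other endothelial lists were read by their counts, beside the 60.4% of detected genes and 49.6% of all genes with a negative difference. All 10 liver sinusoidal genes had negative differences (median -0.25), as did all 10 venous and pericentral genes (median -0.49). Of 9 arterial and periportal genes, 6 had positive ones (median 0.09), but only 4 of the 9 were detected. The detected ones went both ways: Gja5 (0.52), Jag1 (0.14), Dll4 (-0.37) and Ltbp4 (-0.49). None of the genes of these lists was called by limma. An unadjusted limma p under 0.05 was reached by 4 sinusoidal, 8 venous and 3 arterial genes, all with lower values in YFP+ cells. Markers of other cells had mostly positive differences. The pan-leukocyte list had 14 of 14 positive differences with 6 genes called, and its mean lay between 6.95 and 7.23 log2 on YFP- and at 8.71, 9.88, 8.15 and 8.81 on YFP+ replicates 1 to 4. Ptprc, which encodes CD45, was below the negative controls' 95th percentile on all 4 YFP- arrays and above it on 3 of 4 YFP+ arrays, although the cells were sorted as CD45-. Its YFP+ values were 9.06, 10.08, 7.22 and 8.82 log2 on replicates 1 to 4 (limma adjusted p = 0.181). The bile duct list had 7 of 10 genes called higher, with list means of 7.96 to 8.31 log2 on YFP- and 8.88 to 9.56 on YFP+ arrays. Of the platelet list 3 of 10 genes were called higher (7.68 to 7.79 against 8.56 to 8.82 log2) and of the hepatocyte list 3 of 14 (7.41 to 7.58 against 7.72 to 8.47 log2). Stellate cell and fibroblast markers (11 measured) and Schwann cell and nerve markers (8 measured) had no call by limma and 1 and 0 genes at an unadjusted p under 0.05. Dcn, of the fibroblast list, was above the 95th percentile on 3 of 4 YFP+ arrays and on no YFP- array. Its YFP+ values were 9.90, 9.30, 7.99 and 10.54 log2 on replicates 1 to 4 (limma adjusted p = 0.258). The other 10 genes of that list and the 8 Schwann cell and nerve markers were above it on no array. The part of these cells in the guidance gene values was not tested. The comparison with the endothelial list cannot separate it from less RNA per endothelial cell.

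Epha7, the called member, was dim. It stood at 7.29, 6.38, 6.55 and 6.90 log2 on YFP- replicates 1 to 4 and at 7.88, 7.82, 7.88 and 7.78 on YFP+ replicates 1 to 4. The 4 YFP+ arrays were nearly identical (SD 0.045) and all above the resident ones, which spread more (SD 0.40). The measured values differed by 1.06 on the log2 scale (SE 0.18, 95% interval 0.65 to 1.47, limma adjusted p = 0.0225), but every value was under its own array's negative-control 95th percentile, and on YFP- cells 3 of 4 values were also below their median, so no fold is given. The call was lost without YFP- replicate 2, 3 or 4 or YFP+ replicate 1 or 4 (limma adjusted p = 0.0563 to 0.0746), and held without YFP- replicate 1, YFP+ replicate 2 or YFP+ replicate 3 (0.0116 to 0.0423). Subtraction of each array's negative-control median before the log2 step gave a difference of 1.60 (limma adjusted p = 0.0249). In that step values under the median were set equal to it, and 50 units were added to every gene. The 3 YFP- values below their median thus became 1 constant. The larger difference therefore depends on that floor and offset and adds no support for the call. The Epha7 level kept within 0.10 log2 over the YFP+ arrays. On these arrays the pan-leukocyte mean ranged from 8.15 to 9.88 log2 and the bile duct mean from 8.88 to 9.56. The platelet mean ranged from 8.56 to 8.82 and the hepatocyte mean from 7.72 to 8.47. As Epha7 was under the percentile on all of them, its even level says little. The source of its transcript was not tested.

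The remaining 30 dim members came from every family and showed no call, with limma adjusted p-values of at least 0.275 and 2 genes, Efna5 and Slit2, at an unadjusted p under 0.05. Their group means lay between 6.16 and 8.79 log2 and their differences between -0.36 and 0.43, 17 positive and 13 negative. Half-widths of their 95% intervals ran from 0.26 to 0.86 log2, so differences of that size could not be resolved. Of the EphA receptors 8 of 9 were dim (Epha2 was not), of the EphB receptors 4 of 5, of the ephrin-A ligands 4 of 5 and of the ephrin-B ligands 1 of 3. All 3 Slit ligands, all 4 Unc5 receptors, Dcc and Neo1, 2 of 4 Robo receptors and 3 of 4 netrin genes were dim. The Slit genes had differences from -0.07 to 0.41, the Unc5 genes from -0.10 to 0.20 and the dim EphB receptors from -0.03 to 0.18. Dcc and Ephb2 were among 4 members below the median of the negative controls on every array, and such values give no evidence on whether the gene is expressed.

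A pair of netrin receptor genes is given by array, chosen after their values were seen. Unc5b encodes the UNC5 receptor of vascular endothelium that restrains sprouting, and it was the dim member nearest to detection. It stood at 8.89, 8.51, 8.91 and 8.87 log2 on YFP- replicates 1 to 4 and at 9.04, 8.43, 9.15 and 8.16 on YFP+ replicates 1 to 4, above the negative controls' 95th percentile on YFP+ replicates 1 and 3. Neo1, which encodes neogenin, a receptor of netrins and of repulsive guidance molecules, varied most within the groups. Its values were 7.51, 8.19, 6.66 and 7.62 log2 on YFP- and 8.09, 7.56, 6.42 and 7.93 on YFP+ replicates 1 to 4, with replicate 3 the lowest of each group. Its interval, -0.86 to 0.87 log2, was the widest of the 39. A pair of probe sets with several symbols stood outside the member rule. That of Ntn3 and Tbc1d24 was at 8.12 ± 0.13 log2 in YFP- and 7.65 ± 0.30 log2 in YFP+ cells, and that of Ntng2 and 6530402F18Rik at 9.93 ± 0.33 and 9.45 ± 0.49 log2 (SD, n = 4). Their signal cannot be assigned to the netrin gene.

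Proteins that carry the signal inside the cell, or that share ligands and receptors with the members, were read from lists of 65 genes, all of which were measured. Called were 4 of the 65, 3 higher and 1 lower. Of 30 effectors and adaptors of Eph and ephrin signalling, 1 was called, higher (median difference -0.06). Of 17 Slit-Robo partners, 1 was called higher and 1 lower (median -0.00), and of 18 partners of netrins, DCC, UNC5 and neogenin, 1 was called, higher (median -0.12). For all genes, 1.27% were called higher and 0.336% lower.

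Srgap1, which encodes a GTPase-activating protein that binds the tail of Robo receptors and switches off Cdc42, fell in YFP+ cells. It stood at 9.38, 9.39, 9.33 and 9.35 log2 on YFP- replicates 1 to 4 and at 8.36, 8.17, 8.58 and 8.67 on YFP+ replicates 1 to 4. All resident samples were above background and nearly equal (SD 0.026), and no YFP+ array exceeded its own negative-control 95th percentile. The measured means were 9.37 ± 0.026 and 8.45 ± 0.22 log2 (SD, n = 4, limma adjusted p = 0.00851). The YFP+ level has only an upper bound, and Srgap1 was at least 1.43-fold lower when that percentile stands in for dim values. Its call held without each array in turn (limma adjusted p = 0.00571 to 0.038).

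Evl, an Ena/VASP family gene of actin assembly downstream of Robo, rose (limma adjusted p = 0.0125). It went from 7.61, 7.40, 7.62 and 7.61 log2 on YFP- replicates 1 to 4 to 8.69, 9.29, 8.49 and 8.48 on YFP+ replicates 1 to 4. Adora2b, the adenosine A2B receptor gene that has been linked to netrin-1, rose (limma adjusted p = 0.036), from 6.66 to 6.90 log2 over the YFP- arrays to 7.70, 9.20, 8.37 and 7.78 on YFP+ replicates 1 to 4. Both were highest on YFP+ replicate 2, the array with the highest pan-leukocyte mean (9.88 log2), but the other arrays did not keep that list's order. Adora2b was next highest on YFP+ replicate 3, where the list was lowest (8.15 log2). Evl was almost the same on YFP+ replicates 3 and 4, where the list was at 8.15 and 8.81 log2. Grb7, an adaptor gene whose product binds EphB1, rose (limma adjusted p = 0.0386), from 7.70 to 7.92 log2 over the YFP- arrays to 9.17, 8.24, 8.70 and 9.04 on YFP+ replicates 1 to 4. The bile duct list had the same order on these 4 arrays (9.56, 8.88, 9.18 and 9.46 log2). On 4 arrays an order can match or differ by chance, and this holds for Evl and Adora2b as well. All 3 higher genes were below the negative controls' 95th percentile on every YFP- array and above it on 1 or 2 YFP+ arrays, so their YFP- levels are only bounds and no size of change is given, and the part of other cells in them was not tested. Without an array in turn, the call was lost for Evl without YFP- replicate 2 (limma adjusted p = 0.0528), for Adora2b without any 1 YFP- array (0.0895 to 0.119) and for Grb7 without any 1 array other than YFP+ replicates 2 and 3 (0.0836 to 0.125).

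**Figure D4:**
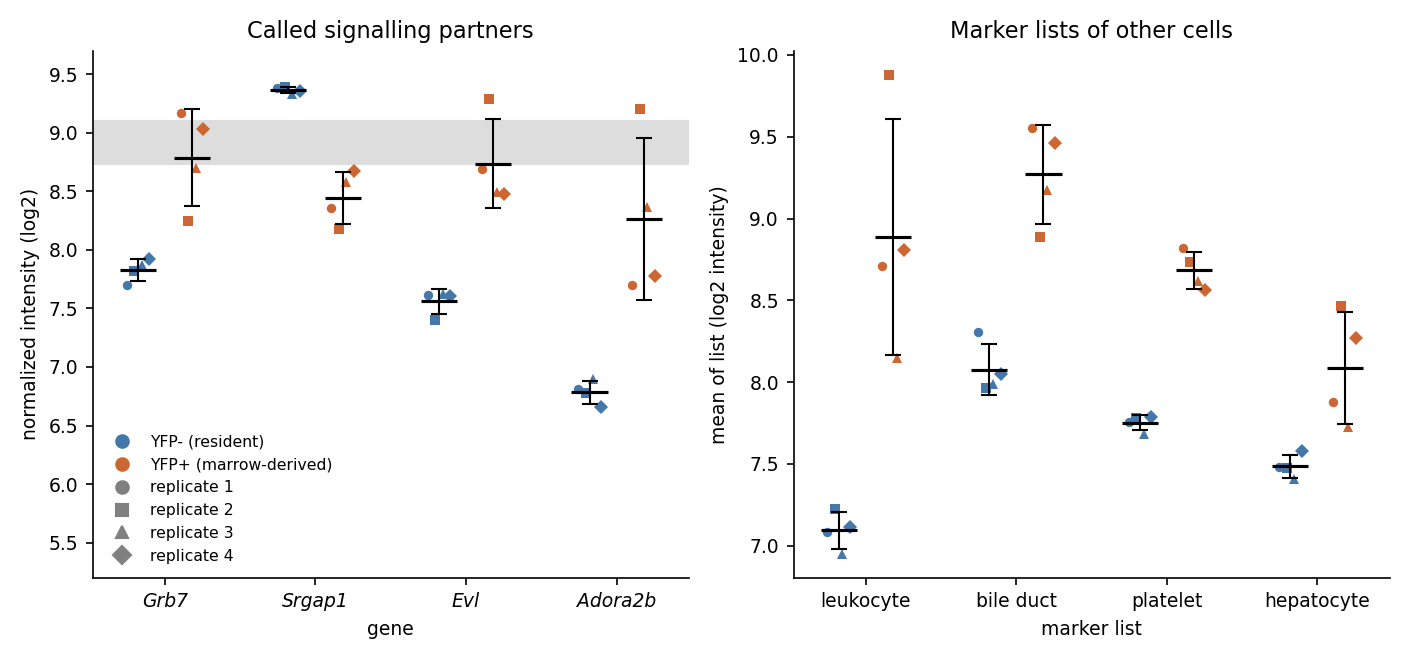
Left, normalized intensity (log2) of the 4 called signalling partners on each array, by group and replicate, with mean and SD (n = 4); the grey band spans the 95th percentile of the negative controls over the arrays. Right, list means of markers of other cells on the same arrays. Srgap1 is the gene whose YFP+ values are lower. Evl and Adora2b are highest on YFP+ replicate 2, as is the leukocyte list, whose order on the other YFP+ arrays differs from theirs.

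The authors' deposited table gives each probe set an unadjusted p from a test it does not name. In it, 4 of the 39 members had a p under 0.05, of which 1 had a fold above 1: Ephb4 (fold 0.738, p = 0.000337 in the authors' deposited table), Epha7 (2.02, p = 0.000449 there), Robo4 (0.774, 0.00366) and Efnb2 (0.724, 0.00441). The share of all probe sets with a deposited p under 0.05 was not counted. These are the same 4 genes whose groups did not overlap. The deposited p compares the same arrays, with the same values, so this match is not independent evidence.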

How the data were processed

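RNA was measured on 8 Affymetrix arrays, with biotin-labelled cRNA made from 100 pg of total RNA, per the labels' protocols. Intensity values were deposited by the authors already normalized and linear; their software, any background correction and the genome build were not given in the sources used here. Per the file headers, the larger of the 2 deposited tables (29129 and 28838 entries, 8 of 8 per-array columns identical within a relative tolerance of 1e-06) adds the 2 group means, their ratio (a fold, YFP+ over YFP-) and a p-value without adjustment. Samples were grouped by their titles.

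Values were log2 transformed. Of 22203 complete probe sets of genes, 21370 had 1 symbol in the deposited annotation; of 131 genes with several probe sets the brightest was kept, giving 21159 genes. YFP+ and YFP- arrays were compared with limma 3.58.1 (R 4.3.3; lmFit, eBayes, no covariate, two-sided, Benjamini-Hochberg). SEs and intervals are limma's and SDs are over arrays. Values relative to the endothelial list were compared with exact permutation tests (scipy 1.17.1), a comparison chosen after results were seen, as were the CCAAT and GC box searches. Genes named with differences are detected, called or non-overlapping members and called partners. The members and lists were chosen with earlier results of these data known. The fit was tested on simulated data with 200 changed genes. It called 10% of changes of 0.5 log2, 78% of changes of 1 log2 and 96% of changes of 2 log2. Of its 146 calls, 4 were false. Most changes of 0.5 log2 were thus missed, so a member with a difference near that size can stay uncalled. Alternatives tried were a replicate block, further normalization (quantile or cyclic loess), subtraction of the negative controls, leaving out dim genes, the mean of probe sets, trended and robust eBayes, array weights, and leaving out arrays.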

Additional observations from a re-analysis of the deposited data

Results flagged for a closer look

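Within groups of 4 arrays, 9 of 86 groups had a highest or lowest array whose gap to the others was large for the group's range, where chance flags about 1 in 20 groups. YFP+ replicate 3 was the high array in 4 of them, all of dim genes: Epha10 at 8.52 log2 against 7.66 to 7.71 on the other YFP+ arrays, Slit1 at 8.05 against 7.07 to 7.23, Slit3 at 7.88 against 7.51 to 7.57, and Ntng1 at 6.76 against 6.34 to 6.39. In YFP- cells, replicate 3 was high for Epha2 (10.38 against 9.72 to 9.82 log2) and Ntng1 (6.72 against 6.53 to 6.54), and replicate 4 for Epha1 (8.65 against 7.77 to 7.87). YFP- replicate 2 was low for Unc5b (8.51 against 8.87 to 8.91 log2) and for Evl (7.40 against 7.61 to 7.62).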

How the results depend on the processing

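Over 17 refits and the comparison with the endothelial list, 196 of 224 values of the 13 named genes kept their direction and their side of the threshold. Part of this agreement was fixed in advance. The replicate block, the mean of probe sets, trended and robust eBayes and leaving out dim genes left the differences of these genes unchanged. The comparison with the list could hardly call a gene, so the share is no measure of robustness. The number of members called was 1 in the main fit and 2 (Epha7 and Ephb4) after subtraction of the negative controls and with trended and robust eBayes. It was 1 with dim genes left out, then Ephb4 and not Epha7, which is dim, and 0 without YFP+ replicates 2 and 3 together, a setting chosen after seeing the data. With 1 array left out it ranged from 0 to 1; beside these counts of 0, Epha7 had limma adjusted p-values of 0.0563 to 0.0746, and 7 members had an unadjusted p under 0.05 on all arrays. The 340 calls over all genes became 213 without dim genes, 695 under array weights, 586 without YFP+ replicates 2 and 3, and 115 to 636 with 1 array left out. Calls among the 65 partners went from 4 to 2 after subtraction of the negative controls, to 8 with array weights and to between 1 and 5 with 1 array left out. Signs turned relative to the endothelial list for Efna1 (0.088), Efnb1 (0.078) and Epha2 (0.090), and without YFP+ replicate 3 (-0.090) or replicate 4 (-0.06) for Ntn4, whose values with 1 array left out ran from -0.090 to 0.17; the cause was not tested. Same-numbered samples had correlated deviations of 0.019 to 0.16, and 7 of 8 samples correlated best with their own number. The sort divided liver cells by YFP, so both fractions could come from the same livers. The labels do not say whether a number marks 1 mouse. The main fit and the permutation tests treated the samples as unpaired. With the replicate number as a block, 241 genes were called over all genes, Epha7 stayed called among the members and Grb7 missed the threshold (limma adjusted p = 0.0653). Most members lie near the negative controls, which limits what their differences can show.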
